A study of Homo sapiens with 8 samples.

Results

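The genes described here are 10 receptors, coreceptors and polarity proteins of Wnt signalling: ROR1, ROR2, LRP5, LRP6, LGR4, LGR5, PRICKLE1, PRICKLE2, VANGL1 and VANGL2. They were chosen by symbol from the 27317 symbols of the count tables, and all 10 were present. The cells were of MEL1, an embryonic stem cell (ESC) line from human, and the tables held RNA sequencing counts of 8 libraries in 4 groups of 2. In 2 groups the cells had been exposed, as ESCs, to 2 nM TCDD, a dioxin that activates the aryl hydrocarbon receptor (AHR), dissolved in DMSO. The other 2 groups received DMSO alone, kept below 0.1% as in the TCDD groups. Each treatment was sampled at D2, after 2 days of cardiac differentiation, and at D1, just before differentiation began. All D2 cells had therefore been in a medium without insulin that held 5 µM CHIR99021, an inhibitor of the kinase GSK3, and D1 cells had not, so that time, medium and inhibitor cannot be told apart in a comparison of D2 with D1. The labels do not give the length of the exposure, and do not say whether the libraries of a group came from separate cultures, so p-values measure only the spread between these libraries, which may be technical.

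Wnt proteins bind Frizzled receptors, and a Frizzled joined by the coreceptor LRP5 or LRP6 stabilises beta-catenin, the branch that GSK3 inhibition also switches on. LGR4 and LGR5 bind R-spondins and so protect Frizzled and LRP proteins from the ubiquitin ligases RNF43 and ZNRF3, which remove them from the cell surface. ROR1 and ROR2 are receptor tyrosine kinase-like proteins that bind WNT5A-type ligands and signal without beta-catenin, and the membrane protein VANGL with its cytoplasmic partner PRICKLE forms the side of the planar cell polarity machinery that orients cells within a sheet and drives their convergence movements in the gastrulating embryo.

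Library totals ran from 34873055 to 43770420 counts. Levels are counts divided by the TMM-scaled library total (CPM, edgeR's cpm), and 17268 genes passed edgeR's filter on low counts. A gene was called changed at a Benjamini-Hochberg adjusted p under 0.05 over these genes, from edgeR's quasi-likelihood test. Of the 10 members, 9 passed the filter. The remaining member, LGR5, had 1 and 1 counts in TCDD libraries against 0 and 4 in DMSO libraries at D2, and 1 and 1 counts in TCDD libraries against 1 and 2 in DMSO libraries at D1. It was near the limit of detection in every library, so no fold change was computed for it.

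With TCDD, transcripts of ROR1, LGR4 and PRICKLE1 rose at both times, and VANGL1 fell at D2. At D2, 4 of 9 tested members were called, 3 higher and 1 lower, where 2.90% of all genes tested were called (1.40% higher, 1.50% lower). At D1, 3 of 9 were called, all higher, where 1.14% of all genes tested were called (0.735% higher, 0.405% lower). The median log2 fold change of the 9 members was 0.10 at D2 and 0.02 at D1, and the median of all genes tested was 0.00 at both times. The calls were thus held by a few members with larger changes. The members, and the lists below, were chosen with earlier results of these data known. Their counts beside the shares of all genes are therefore descriptions and do not test the set. In bulk RNA, a change in the share of cells that express a gene and a change in its level per cell cannot be told apart.

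**Figure D1:**
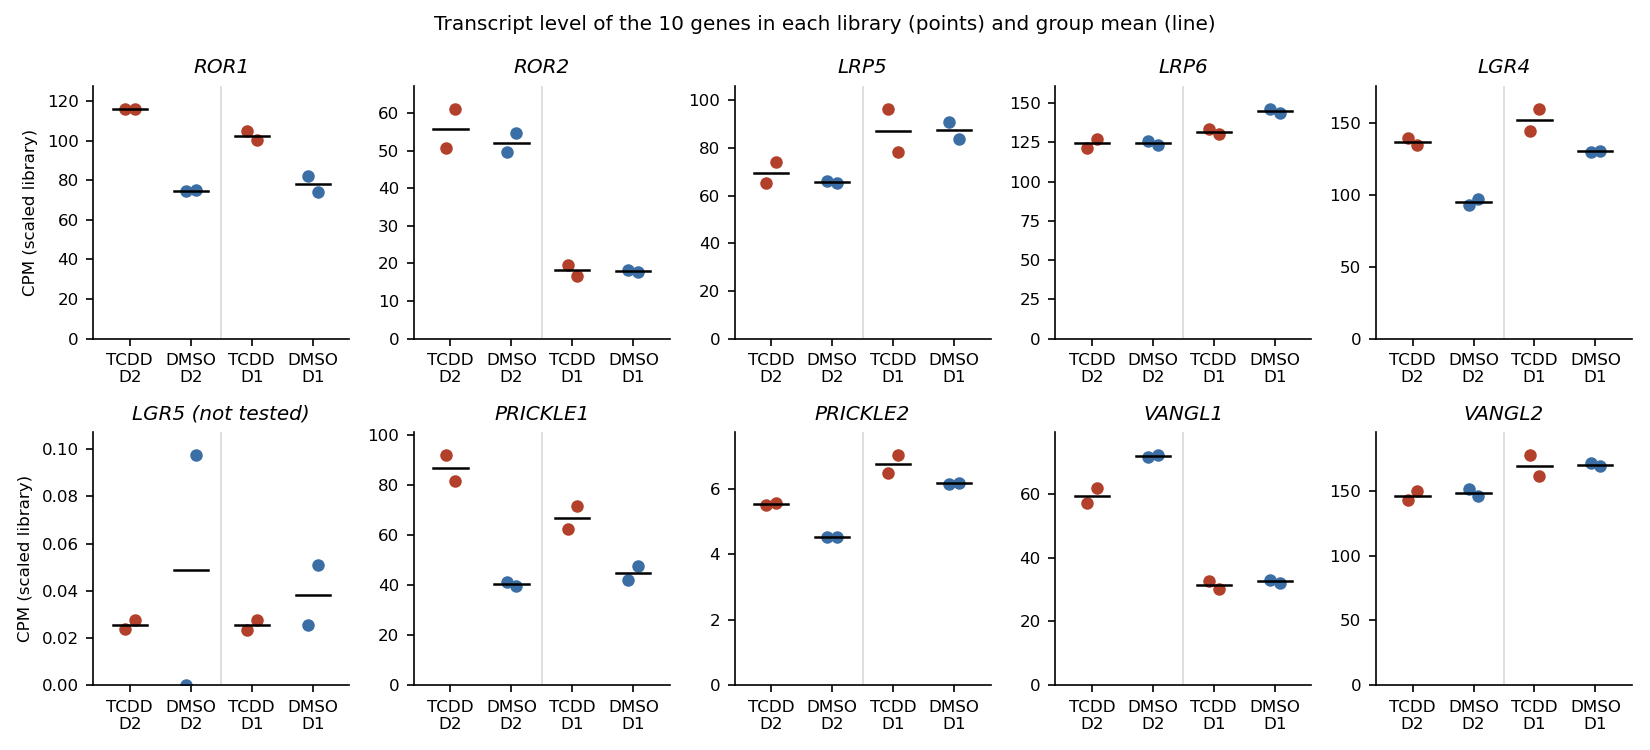
Level of each of the 10 genes in CPM (vertical axis, from 0, a scale for each panel) in each library, as points, with the mean of the 2 libraries of a group as a line; TCDD groups are red and DMSO groups blue. ROR1, LGR4 and PRICKLE1 are higher in both TCDD libraries than in both DMSO libraries at each time, VANGL1 is lower with TCDD at D2, and LGR5 stays under 0.1 CPM.

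ROR1, the receptor of the ROR pair with the higher CPM at every time and treatment (not corrected for gene length), stood at 116 and 116 CPM in TCDD libraries against 74.7 and 74.9 CPM in DMSO libraries at D2. At D1 it stood at 105 and 100.2 CPM in TCDD libraries against 82.0 and 74.1 CPM in DMSO libraries. The TCDD libraries were above the DMSO libraries at both times, without overlap. The rise was 1.55-fold at D2 (log2 fold change 0.63 ± 0.05, SE; adjusted p = 7.17e-08, edgeR) and 1.31-fold at D1 (0.39 ± 0.05; adjusted p = 9.01e-05, edgeR). ROR2, its paralog, had 50.7 and 61.1 CPM in TCDD libraries against 49.7 and 54.6 CPM in DMSO libraries at D2, and 19.7 and 16.6 CPM in TCDD libraries against 18.3 and 17.7 CPM in DMSO libraries at D1. The groups overlapped at both times. The log2 fold change of ROR2 was 0.10 at D2 (95% interval -0.09 to 0.28) and 0.02 at D1 (-0.21 to 0.25), so that a rise as large as that of ROR1 lay outside its interval at each time.

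The 2 LRP coreceptors were not called with TCDD at either time. LRP5 had 65.2 and 74.1 CPM in TCDD libraries against 66.1 and 65.3 CPM in DMSO libraries at D2, and 96.4 and 78.2 CPM in TCDD libraries against 91.1 and 83.7 CPM in DMSO libraries at D1. Its 2 TCDD libraries at D1 lay further apart than any other replicates of this gene, one above and one below both DMSO libraries. The log2 fold change of LRP5 was 0.08 at D2 (95% interval -0.15 to 0.31) and 0.00 at D1 (-0.22 to 0.23). LRP6 had 121 and 127 CPM in TCDD libraries against 126 and 124 CPM in DMSO libraries at D2, a log2 fold change of -0.01 (95% interval -0.10 to 0.09). At D1 LRP6 had 134 and 130.2 CPM in TCDD libraries against 146 and 144 CPM in DMSO libraries, and the groups did not overlap. That difference, a log2 fold change of -0.14 (95% interval -0.23 to -0.04, not adjusted for the number of genes), missed the threshold over all genes (adjusted p = 0.213, edgeR).

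LGR4, the R-spondin receptor of the pair that these cells expressed, had 139 and 135 CPM in TCDD libraries against 92.6 and 96.7 CPM in DMSO libraries at D2, and 144 and 160 CPM in TCDD libraries against 130.0 and 130.2 CPM in DMSO libraries at D1. Both TCDD libraries were above both DMSO libraries at each time. It rose 1.45-fold at D2 (log2 fold change 0.53 ± 0.05; adjusted p = 7.84e-07, edgeR) and 1.17-fold at D1 (0.22 ± 0.05; adjusted p = 0.0268, edgeR). The D1 call was lost without DMSO replicate 1, DMSO replicate 2 or TCDD replicate 2 of D1 (adjusted p = 0.284, 0.136 and 0.227), and in a fit of the 4 D1 libraries alone (adjusted p = 0.105).

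PRICKLE1, the cytoplasmic partner of VANGL, showed the largest TCDD difference of the 9 tested members at both times. It had 92.0 and 81.8 CPM in TCDD libraries against 41.3 and 39.6 CPM in DMSO libraries at D2, and 62.3 and 71.7 CPM in TCDD libraries against 41.9 and 47.5 CPM in DMSO libraries at D1. The lowest TCDD library was above the highest DMSO library at each time. The rise was 2.15-fold at D2 (log2 fold change 1.11 ± 0.08; adjusted p = 5.56e-07, edgeR) and 1.50-fold at D1 (0.58 ± 0.08; adjusted p = 0.000794, edgeR). PRICKLE2, a low-level paralog, had 5.51 and 5.56 CPM in TCDD libraries against 4.53 and 4.53 CPM in DMSO libraries at D2, and 6.49 and 7.02 CPM in TCDD libraries against 6.16 and 6.18 CPM in DMSO libraries at D1. Its groups did not overlap at either time, yet neither difference passed the threshold: the log2 fold change was 0.29 at D2 (95% interval 0.05 to 0.52; adjusted p = 0.223, edgeR) and 0.13 at D1 (-0.09 to 0.34; adjusted p = 0.757, edgeR).

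PRICKLE1 shares exon sequence with genes on the other strand in the GENCODE v29 annotation of GRCh38, 438 bases with PPHLN1 and 1858 with AC079601.1, which is not a symbol of the count tables. The strand setting of the counting is not given, so reads of the shared stretches cannot be assigned. PPHLN1, a nuclear protein gene, averaged 83.0 CPM with TCDD and 85.2 CPM with DMSO at D2 (log2 fold change -0.04, adjusted p = 0.801, edgeR), and 63.9 CPM with TCDD and 62.9 CPM with DMSO at D1 (0.02, adjusted p = 0.939, edgeR). From D1 to D2 PPHLN1 was called higher, by 0.38 on the log2 scale with TCDD (adjusted p = 8.88e-07, edgeR) and 0.44 with DMSO (adjusted p = 1.19e-07, edgeR). The part of shared reads in the D2 against D1 results of PRICKLE1 was not tested. ROR1-AS1, an antisense gene of ROR1, had at most 2 counts in a library, and the PRICKLE2 antisense genes had at most 3.

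VANGL1 had 57.1 and 61.8 CPM in TCDD libraries against 71.7 and 72.0 CPM in DMSO libraries at D2, and both TCDD libraries were lower. The log2 fold change was -0.27 ± 0.05, to 0.827 times the DMSO level (adjusted p = 0.00453, edgeR). The call was lost without DMSO replicate 1, DMSO replicate 2 or TCDD replicate 1 of D2 (adjusted p = 0.0561, 0.0601 and 0.0975). At D1 VANGL1 had 32.7 and 30.1 CPM in TCDD libraries against 33.1 and 32.0 CPM in DMSO libraries, overlapping groups with a log2 fold change of -0.05 (95% interval -0.18 to 0.07). VANGL2 had 143 and 149 CPM in TCDD libraries against 152 and 146 CPM in DMSO libraries at D2, and 177 and 161 CPM in TCDD libraries against 171 and 169 CPM in DMSO libraries at D1. It was not called at either time, with log2 fold changes of -0.02 (95% interval -0.13 to 0.08) at D2 and -0.01 (-0.11 to 0.10) at D1.

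**Figure D2:**
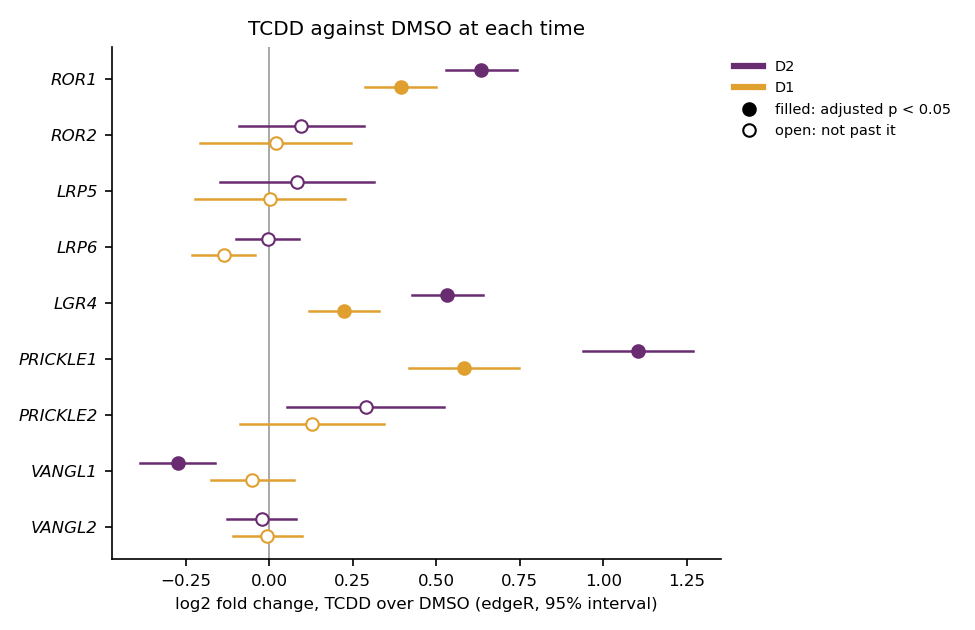
Log2 fold change of TCDD over DMSO (horizontal axis) for the 9 tested members, with 95% intervals from the edgeR fit, at D2 in purple and at D1 in orange; filled points passed an adjusted p of 0.05. PRICKLE1, ROR1 and LGR4 are filled and right of 0 at both times, VANGL1 is filled and left of 0 at D2, and the paralogs ROR2, PRICKLE2 and VANGL2 are open at both times.

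The promoter windows of ROR1 and LGR4, which rose with TCDD at both times and whose windows overlap no annotated untranslated exon, are shown because TCDD acts through AHR, a transcription factor whose response element holds the core GCGTG. RefSeq windows of GRCh38.p14 were read over the 250 bases before each transcription start, and the table held 10 windows of 8 members, all but LRP6 and LGR5. The core was searched on both strands, as GCGTG or its reverse complement CACGC. It was present in 6 of the 10 windows, those of ROR1, ROR2, LGR4 and PRICKLE1 and both of VANGL1, and in 32.2% of all 35116 windows of the same length. The windows of LRP5, VANGL2 and both of PRICKLE2 held no match. GC content ran from 62.0% (LGR4) to 78.0% (ROR2) in the windows with the core. It was 87.2% for LRP5, 76.4% for VANGL2, and 47.2% and 52.0% for PRICKLE2. The share over all windows was not matched for base composition, so no excess of the core was tested. ROR1 is on chromosome 1 and LGR4 on chromosome 11, and the capitals below mark the core in either orientation.
ROR1, chr1:63773767-63774016, plus strand: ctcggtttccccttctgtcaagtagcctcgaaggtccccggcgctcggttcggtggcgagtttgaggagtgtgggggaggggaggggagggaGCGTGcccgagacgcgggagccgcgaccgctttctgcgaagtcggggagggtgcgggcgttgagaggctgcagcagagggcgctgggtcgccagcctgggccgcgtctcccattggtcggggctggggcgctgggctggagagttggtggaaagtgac
LGR4, chr11:27472791-27473040, minus strand: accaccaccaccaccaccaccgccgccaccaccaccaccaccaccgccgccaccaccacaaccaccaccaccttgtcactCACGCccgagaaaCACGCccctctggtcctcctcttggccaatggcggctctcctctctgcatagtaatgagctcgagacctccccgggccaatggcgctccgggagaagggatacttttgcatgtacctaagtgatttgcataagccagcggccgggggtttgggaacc
The LGR4 window held 2 matches, 170 and 157 bases before the start, and 10.2% of all windows held 2 or more. The single ROR1 match lay 158 bases before the start. The PRICKLE1 match lay 224 bases before the start on chromosome 12, in a window that overlaps untranslated exon sequence of other PRICKLE1 transcripts and is not printed. CTTTGA, a core of the element bound by the TCF/LEF factors of beta-catenin signalling, was in none of the 10 windows on either strand and in 11.2% of all windows. These matches describe letters within the windows; windows with a match belonged to members that rose (ROR1, LGR4, PRICKLE1), to a member that fell (VANGL1) and to a member that was not called (ROR2).

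The TCDD difference at D2 was compared with that at D1 by the interaction term of the same fit, in which 0.822% of all genes tested were called (0.527% higher at D2). It was larger at D2 for PRICKLE1, by 0.52 ± 0.11 on the log2 scale (adjusted p = 0.0373, edgeR), and for LGR4, by 0.31 ± 0.07 (adjusted p = 0.0421, edgeR). These were the 2 members called of 9. Both calls depended on the libraries used: leaving out each of the 8 in turn, PRICKLE1 kept the call in 4 of 8 fits and LGR4 in 1 of 8. PRICKLE1 lost it without DMSO replicate 2 of D1, DMSO replicate 1 or 2 of D2, or TCDD replicate 1 of D2, and LGR4 kept it without TCDD replicate 2 of D1. The differences stayed above 0, from 0.43 to 0.63 for PRICKLE1 and from 0.24 to 0.38 for LGR4. Each such fit leaves 1 library in a group, and a call could be lost without a smaller difference. For PRICKLE1 it was 0.55 without DMSO replicate 1 of D2. For ROR1 the difference was 0.24 ± 0.07 (adjusted p = 0.167, edgeR) and for VANGL1 -0.22 ± 0.08 (adjusted p = 0.289, edgeR). Unequal responses of these genes at D2 and D1 were thus not shown by the main fit. ROR1 was called in 1 of 14 alternative fits, with all libraries kept (adjusted p = 0.0412, edgeR).

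Between D1 and D2 most genes tested were called, and so were most members; whether the members' share differs from that of all genes was not tested. With TCDD, 8 of 9 were called, where 65.3% of all genes tested were called (33.1% higher, 32.2% lower). With DMSO, 7 of 9 were called, where 63.2% of all genes tested were called (32.5% higher, 30.7% lower). The comparison with TCDD and the one with DMSO have no library in common, but each shares its libraries with the TCDD comparisons above.

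ROR2 and VANGL1 had the largest rises of the members at D2 in both treatments. ROR2 averaged 55.9 ± 7.4 CPM at D2 and 18.2 ± 2.1 CPM at D1 with TCDD (SD, n = 2 each), a 3.06-fold rise (adjusted p = 4.70e-09, edgeR). With DMSO it averaged 52.2 ± 3.5 CPM at D2 and 18.0 ± 0.4 CPM at D1 (SD, n = 2 each), a 2.90-fold rise (adjusted p = 8.81e-09, edgeR). VANGL1 averaged 59.5 ± 3.3 CPM at D2 and 31.4 ± 1.8 CPM at D1 with TCDD (SD, n = 2 each), a 1.89-fold rise (adjusted p = 1.72e-11, edgeR), and 71.9 ± 0.2 CPM at D2 and 32.5 ± 0.7 CPM at D1 with DMSO (SD, n = 2 each), a 2.21-fold rise (adjusted p = 4.57e-13, edgeR).

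LGR4, LRP5, PRICKLE2 and VANGL2 were lower at D2 in both treatments, by 0.15 to 0.33 on the log2 scale with TCDD and by 0.20 to 0.46 with DMSO. LGR4 fell by 0.15 ± 0.05 with TCDD (adjusted p = 0.0125, edgeR) and by 0.46 ± 0.05 with DMSO (adjusted p = 1.08e-07, edgeR), and the interaction above is the test of that difference. With TCDD, LGR4 lost its call without TCDD replicate 2 of D1 or of D2, LRP5 without TCDD replicate 1 of D2, and PRICKLE2 without TCDD replicate 2 of D1 or either TCDD library of D2. DESeq2 did not call PRICKLE2 with TCDD. LRP6 was called lower with DMSO, where it fell by 0.22 ± 0.05 (adjusted p = 0.000287, edgeR), and had a log2 fold change of -0.09 with TCDD (adjusted p = 0.105, edgeR); its interaction term, 0.13, was not called (adjusted p = 0.488, edgeR).

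PRICKLE1 and ROR1 were called higher at D2 with TCDD and not called with DMSO. PRICKLE1 averaged 86.9 ± 7.2 CPM at D2 and 67.0 ± 6.6 CPM at D1 with TCDD (SD, n = 2 each), a 1.30-fold rise (adjusted p = 0.000392, edgeR), and 40.4 ± 1.2 CPM at D2 and 44.7 ± 4.0 CPM at D1 with DMSO (SD, n = 2 each; log2 fold change -0.15, adjusted p = 0.127, edgeR). ROR1 averaged 116 CPM at D2 and 103 ± 3 CPM at D1 with TCDD (SD, n = 2 each), a 1.13-fold rise (adjusted p = 0.00368, edgeR), and 74.8 ± 0.1 CPM at D2 and 78.0 ± 5.6 CPM at D1 with DMSO (SD, n = 2 each; log2 fold change -0.06, adjusted p = 0.31, edgeR). Without composition scaling, which moves the median of all genes to -0.11 with TCDD and -0.08 with DMSO, ROR1 was not called with TCDD (0.07; adjusted p = 0.206, edgeR), and with DMSO ROR1 (-0.15; adjusted p = 0.0137, edgeR) and PRICKLE1 (-0.23; adjusted p = 0.0375, edgeR) were called lower, while LRP6 was called lower with TCDD as well (-0.19; adjusted p = 0.000624, edgeR). With DMSO PRICKLE1 was also called lower with no filter on low counts (adjusted p = 0.0175), in a fit of the 4 DMSO libraries alone (adjusted p = 0.0219) and without DMSO replicate 1 of D1 (adjusted p = 0.0304), all by edgeR.

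**Figure D3:**
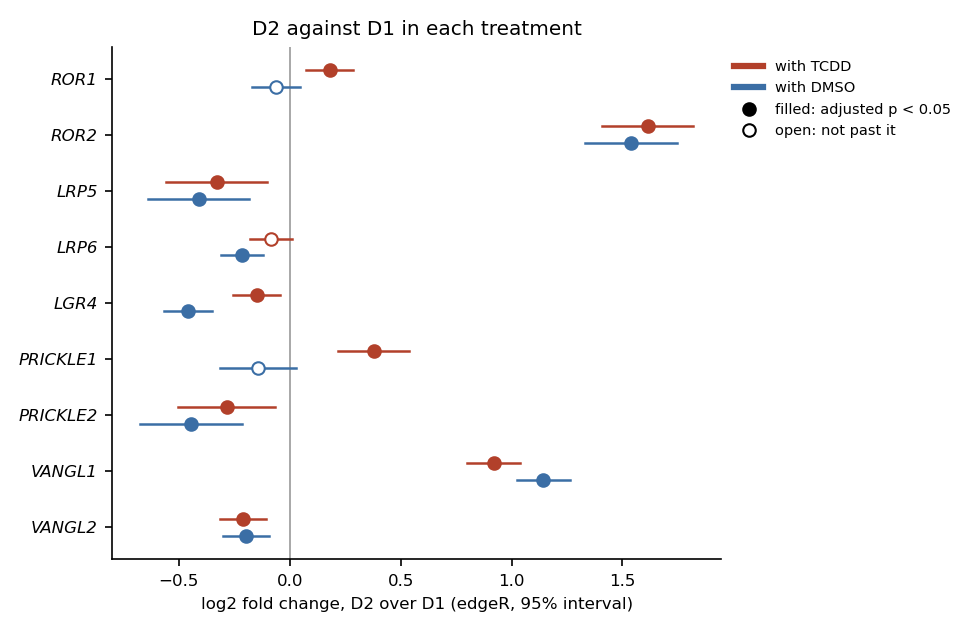
Log2 fold change of D2 over D1 (horizontal axis) for the 9 tested members, with 95% intervals from the edgeR fit, with TCDD in red and with DMSO in blue; filled points passed an adjusted p of 0.05. ROR2 and VANGL1 stand well right of 0 in both treatments, and ROR1 and PRICKLE1 are right of 0 and filled with TCDD and left of 0 and open with DMSO.

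Within each library, the balance of 4 paralog pairs was taken as the log2 ratio of their counts after adding 2 to each, a measure that needs no scaling between libraries. The PRICKLE1 to PRICKLE2 balance was 3.96 with TCDD and 3.14 with DMSO at D2, a difference of 0.81 against a pooled SD of 0.10 between replicates, and 3.30 with TCDD and 2.84 with DMSO at D1, a difference of 0.45 against a pooled SD of 0.10. The ROR1 to ROR2 balance was 1.06 with TCDD and 0.52 with DMSO at D2 (difference 0.54, pooled SD 0.15), and 2.50 with TCDD and 2.11 with DMSO at D1 (difference 0.38, pooled SD 0.10). Both pairs thus leaned further towards the member that rose, and no library of one treatment crossed into the other at either time. Between D2 and D1 with DMSO, the ROR1 to ROR2 balance differed more than between treatments and the other way (difference -1.59, pooled SD 0.08). For PRICKLE1 to PRICKLE2 that difference was 0.30 (pooled SD 0.09).

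The VANGL1 to VANGL2 balance was -1.30 with TCDD and -1.05 with DMSO at D2 (difference -0.25, pooled SD 0.04), and -2.43 with TCDD and -2.38 with DMSO at D1 (difference -0.05, pooled SD 0.02). D2 and D1 differed more than TCDD and DMSO did: with DMSO the balance was -1.05 at D2 and -2.38 at D1, a difference of 1.34 (pooled SD 0.03). The LRP5 to LRP6 balance was -0.84 with TCDD and -0.93 with DMSO at D2 (difference 0.09, pooled SD 0.06), and -0.60 with TCDD and -0.73 with DMSO at D1, where the libraries overlapped. With 2 libraries against 2, an exact permutation test cannot give a two-sided p below 0.333, so these balances are descriptions.

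**Figure D4:**
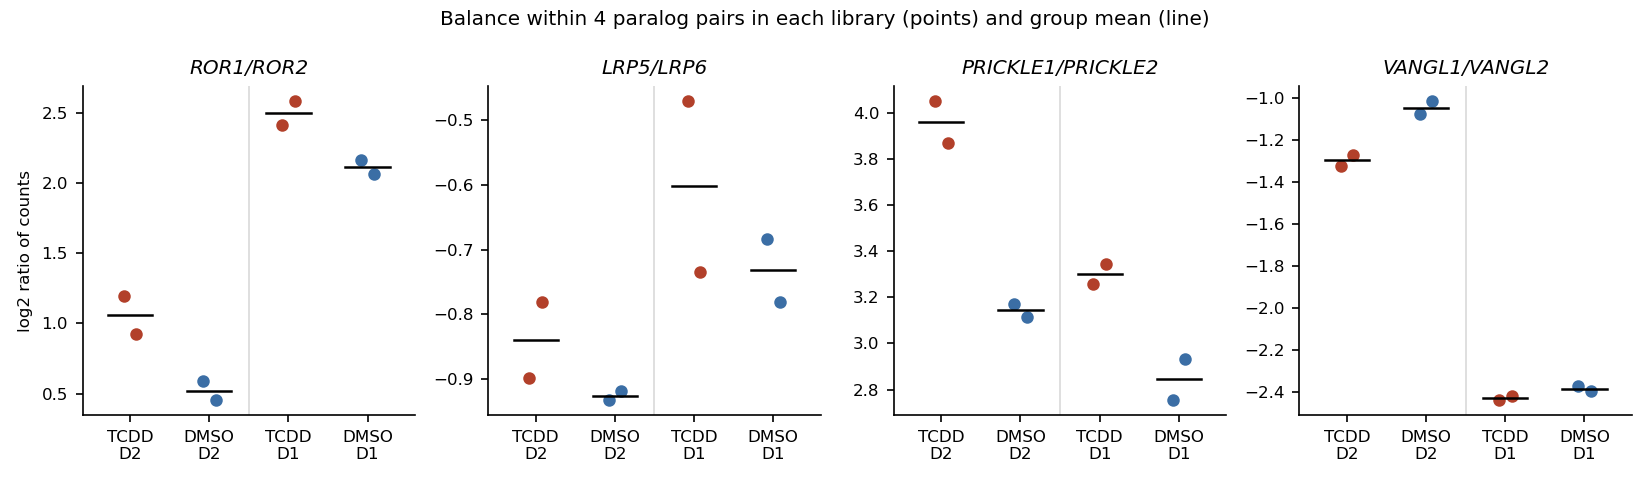
Log2 ratio of counts within 4 paralog pairs (vertical axis, a scale for each panel) in each library, as points, with group means as lines; TCDD groups are red and DMSO groups blue. The PRICKLE1/PRICKLE2 and ROR1/ROR2 points are higher with TCDD at each time, and the VANGL1/VANGL2 points are lower with TCDD at D2.

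Per kilobase of exon, VANGL2 and LGR4 were the most abundant members in all 4 groups. Exon lengths came from GENCODE v29 on GRCh38, which is not the annotation of the counts, so levels between genes are approximate. In TCDD libraries at D2, VANGL2 averaged 27.4, LGR4 26.1 and ROR1 17.6 CPM per kilobase. LRP5, PRICKLE1, LRP6 and ROR2 followed between 13.5 and 11.5 CPM per kilobase, each overlapping the next, ahead of VANGL1 at 6.78 and PRICKLE2 at 0.532. In DMSO libraries at D2, VANGL2 averaged 27.8, LGR4 18.1, LRP5 12.7, LRP6 12.5, ROR1 11.4, ROR2 10.8, VANGL1 8.20, PRICKLE1 5.85 and PRICKLE2 0.436 CPM per kilobase, with no overlap between neighbours. ROR1 was thus the third member in that order with TCDD and the fifth with DMSO. PRICKLE1 was the eighth with DMSO, and with TCDD it could not be ordered against LRP5, LRP6 or ROR2. At D1, the TCDD libraries of VANGL2 (31.7) overlapped those of LGR4 (28.99), and those of LRP5 (16.9) overlapped those of ROR1 (15.6). In DMSO libraries at D1 these stood apart, at 31.9 for VANGL2, 24.8 for LGR4, 16.9 for LRP5 and 11.8 for ROR1, with LRP6 at 14.5 between the last 2. ROR2 and VANGL1 averaged 3.75 and 3.58 CPM per kilobase with TCDD at D1 and both 3.71 with DMSO, and could not be ordered.

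The genes whose pattern over the 8 libraries lay nearest to each member were found by the root mean square difference of centred log2 CPM, among 13726 candidates. The 8 libraries share group differences, so nearness is a description. For ROR1 they were SLC16A7, a monocarboxylate transporter (0.051), and CCDC110 (0.080), and for LGR4 they were SASH1 (0.063) and CCDC172 (0.078). PRICKLE1 had no neighbour so close: its nearest were VIL1, the actin-bundling protein villin (0.14), and CCKBR, a receptor for gastrin and cholecystokinin (0.17). For VANGL1 they were PGM1, a phosphoglucomutase (0.063), and CPXM1 (0.067), and for ROR2 PPP1R16A (0.061) and PFKFB3, a glycolytic regulator (0.069). VANGL2 lay nearest to DVL3, a Dishevelled protein that works in both Wnt branches (0.023), and TRAK1 (0.027), LRP6 to MED13L (0.024) and CLCC1 (0.025), LRP5 to ARID3B (0.038) and N4BP3 (0.048), and PRICKLE2 to MAP7D2 (0.037) and NUDT16L1 (0.053). The smallest distances belonged to LRP6 and VANGL2, the members that varied least over the libraries (SD 0.099 and 0.12 on the log2 scale), and PRICKLE1 varied with an SD of 0.48.

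Other genes of these pathways were read from 3 lists, against the share of all genes tested that was called with TCDD (2.90% at D2, 1.14% at D1). None of 19 tested planar polarity genes, which include the CELSR cadherins, the Frizzled receptors FZD3 and FZD6 and the Dishevelled proteins, was called at D2 (median log2 fold change 0.06, lowest adjusted p = 0.133, edgeR) or at D1 (median -0.01, lowest adjusted p = 0.213, edgeR). Unadjusted p-values were under 0.05 for 2 of them at D2 and 1 at D1, and DESeq2 called 0 at each time. Of 15 ligands and effectors of the beta-catenin-independent branch, such as WNT5A, WNT11, RYK and the DAAM proteins, 0 were called at D2 (median 0.02, lowest adjusted p = 0.285, edgeR; 3 with an unadjusted p under 0.05) and 0 at D1 (median -0.07, lowest adjusted p = 0.437, edgeR; 1 with an unadjusted p under 0.05), and DESeq2 called 0 at each time. In lists of this size, counts of 0 are near the share of all genes and are no result about the lists.

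Of 20 genes around the LRP and LGR receptors, 18 passed the filter, and RSPO2 and RSPO3, genes of R-spondin ligands, did not. At D2, 3 of the 18 were called higher with TCDD and none lower, where 1.40% of all genes tested were called higher and 1.50% lower. RNF43, the ligase that LGR4 with R-spondin restrains, had 51.6 and 58.1 CPM in TCDD libraries against 44.9 and 47.6 CPM in DMSO libraries (log2 fold change 0.24 ± 0.06; adjusted p = 0.0315, edgeR). KREMEN2, a receptor that takes part in the inhibition of LRP6 by DKK proteins, had 14.8 and 14.2 CPM in TCDD libraries against 10.7 and 12.5 CPM in DMSO libraries (0.32 ± 0.08; adjusted p = 0.0413, edgeR). AXIN2, a scaffold that is also a common target gene of beta-catenin, had 161 and 171 CPM in TCDD libraries against 139 and 151 CPM in DMSO libraries (0.19 ± 0.05; adjusted p = 0.0401, edgeR). These 3 calls were near the threshold: DESeq2 called AXIN2 alone, RNF43 lost its call without DMSO replicate 1, DMSO replicate 2 or TCDD replicate 2 of D2, and AXIN2 and KREMEN2 each kept theirs in 3 of the 8 fits that left out a library.

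At D1 none of the 18 was called (median -0.02, lowest adjusted p = 0.132, edgeR; 3 with an unadjusted p under 0.05; DESeq2 0). AXIN2 was at 49.5 and 47.9 CPM in TCDD libraries against 57.3 and 54.0 CPM in DMSO libraries at D1. The log2 fold change of AXIN2 with TCDD was 0.19 at D2 and -0.19 at D1, similar in size and opposite in sign. Its interaction term was 0.38 ± 0.08 on the log2 scale (adjusted p = 0.0145, edgeR). That call was lost without DMSO replicate 1 of D1, DMSO replicate 1 of D2 or TCDD replicate 2 of D2.

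**Figure D5:**
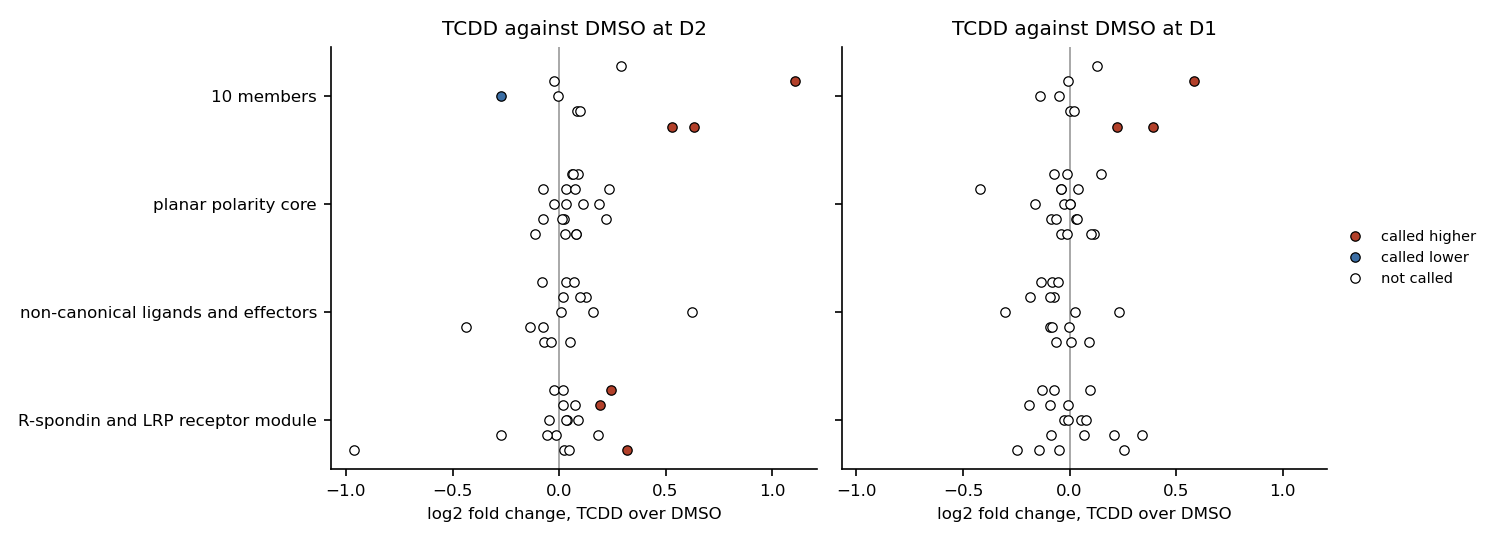
Log2 fold change of TCDD over DMSO (horizontal axis) of each tested gene of the members and of 3 lists, at D2 on the left and at D1 on the right; red points were called higher, blue points lower and open points not called. The members hold 4 called genes at D2 and 3 at D1, and the other lists hold 3 and 0, all 3 in the receptor module.

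In D2 against D1 with TCDD, where 65.3% of all genes tested were called, 10 of 19 planar polarity genes were called higher and 3 lower, 4 and 3 of the 15 beta-catenin-independent genes, and 12 and 4 of the 18 receptor module genes. With DMSO, where 63.2% of all genes tested were called, the counts were 8 higher and 5 lower, 3 and 5, and 9 and 3. No test set these lists apart from all genes. Among called genes of these lists with a mean of at least 1 CPM, the largest rises with DMSO were those of DACT1, a Dishevelled-binding regulator (112 CPM at D2 and 5.95 at D1, 18.8-fold), APCDD1, a membrane inhibitor of Wnt signalling (16.1 CPM at D2 and 1.42 at D1, 11.3-fold), and WNT5B, a ligand of the beta-catenin-independent branch (42.9 CPM at D2 and 4.09 at D1, 10.5-fold). Among the same genes, the largest falls with DMSO were smaller, with log2 fold changes of -0.60 for the polarity cadherin CELSR2 (79.1 CPM at D2 and 120.2 at D1), -0.59 for the formin DAAM2 (4.46 CPM at D2 and 6.70 at D1) and -0.56 for KREMEN2 (11.6 CPM at D2 and 17.1 at D1).

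Marker genes of cell types also differed between treatments. At D2, 7 primitive streak markers summed to 475 to 542 CPM in TCDD libraries and 780 to 806 CPM in DMSO libraries, with 4 of 7 called lower. At the same time 5 pluripotency markers summed to 3641 to 3685 CPM in TCDD libraries and 3328 to 3398 CPM in DMSO libraries, with 1 of 5, SOX2, called higher. Of all genes tested at D2, 1.40% were called higher and 1.50% lower. The streak markers not called had log2 fold changes of -0.12 (TBX6), 0.35 (MESP1) and 0.11 (SP5). Those of the pluripotency markers not called were -0.15 (NANOG), -0.01 (DPPA4), 0.11 (LIN28A) and 0.13 (POU5F1). Of 4 definitive endoderm markers, summing to 27.0 to 29.3 CPM in TCDD libraries and 43.1 to 47.3 CPM in DMSO libraries at D2, 1 of 3 tested was called lower. Of 4 fibroblast markers, COL1A1 was called higher with TCDD (197 CPM with TCDD and 135 CPM with DMSO at D2, 374 CPM with TCDD and 325 CPM with DMSO at D1, the D1 call being lost in 4 of the 8 fits that left out a library), while LUM had no count in any library and DCN had 2 counts in 1 TCDD library at D1 and none elsewhere. The tests covered 3 of 5 neuroectoderm, 2 of 5 trophoblast and 2 of 4 cardiomyocyte markers. None of these was called with TCDD at either time. At D2 the tested trophoblast and cardiomyocyte markers were still higher in both TCDD libraries than in both DMSO libraries. Their log2 fold changes were 0.58 (KRT7), 2.71 (GATA3, averaging 0.103 CPM with TCDD), 0.61 (MYL7) and 0.27 (TNNT2). The groups overlapped at D2 for each tested neuroectoderm marker. At D1, 7 streak markers summed to 10.03 to 10.32 CPM in TCDD libraries and 8.72 to 9.63 CPM in DMSO libraries, and 5 pluripotency markers to 3731 to 3835 CPM in TCDD libraries and 3770 to 3897 CPM in DMSO libraries, with none called in either list. The part of these markers in the results at D2 and D1 was not tested.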

How the data were processed

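RNA sequencing counts of 8 MEL1 libraries were used. The deposited tables hold the authors' raw read counts per gene symbol, as the whole-number values show. Per the submitters' processing notes, cutadapt 1.9.1, STAR and featureCounts 1.5.1 were used with the hg19 build. The annotation, the strand setting and the version of STAR are not given, so counts of overlapping genes and paralogs are uncertain. Groups came from the sample titles. The 17268 genes that passed filterByExpr entered a single quasi-likelihood fit (edgeR 4.0.16, R 4.3.3, robust) with TMM scaling and a mean per group. Two-sided F tests were adjusted by Benjamini-Hochberg across every tested gene, and SEs derive from the F statistic. The 8 members other than PRICKLE2 and LGR5 had 605 or more counts in each library. The fit was also run on counts simulated from the means and spread of these libraries. Such a run cannot show whether that spread is technical.

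All members were named. Of the other lists, genes called with TCDD were named, with the 3 largest rises and falls in D2 against D1 with DMSO at 1 CPM or more, and the 2 nearest patterns per member. Marker genes of cell types were also named, and PPHLN1 as an overlapping gene. The members and lists were chosen with earlier results of these data known. Replicates differed by more than sampling noise (chi-square per gene 3.21 to 6.59), and each library counted as a sample. Alternatives were RLE factors, no composition scaling, no filter, DESeq2 1.42.0, the groups compared alone, a replicate block, a fit that was not robust and each library left out.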

Additional observations from a re-analysis of the deposited data

Results flagged for a closer look

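The TCDD effect at D2 differed from that at D1 by the interaction term of the fit across all genes for 2 members and 1 other gene of the pathway lists. The difference was 0.52 on the log2 scale for PRICKLE1 (both TCDD libraries above both DMSO libraries at each time), 0.31 for LGR4 (likewise) and 0.38 for AXIN2, whose TCDD libraries were both above the DMSO libraries at D2 and both below them at D1. Each of the 3 calls was lost when particular libraries were left out.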

How the results depend on the processing

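PRICKLE1 and ROR1 at both times and LGR4 at D2 stayed called higher with TCDD under all 15 alternatives. Of 306 member fold changes under settings that kept all libraries, 286 kept their direction and side of the threshold, 7 lost and 6 gained a call and 7 changed sign, none of these called. The sign changes were LRP5 at D1 with RLE factors (-0.0010), no filter (-0.0026), DESeq2 (-0.0028), the replicate block (-0.0010) and the groups compared alone (-0.0031), and LRP6 at D2 with RLE factors and DESeq2 (0.0025 each). The members with a larger TCDD effect at D2 numbered 2, but 0 without composition scaling, 1 with the replicate block (PRICKLE1 adjusted p = 0.0512), 1 in the fit that was not robust, an alternative chosen after seeing the data, and 0 to 2 with a library left out. In the other direction, ROR1 gained an interaction call in 1 of 14 alternatives, with all libraries kept (adjusted p = 0.0412, edgeR). Same-numbered libraries had correlated deviations of -0.10 to 0.11 between groups, so the replicate numbers were not taken as a pairing. The block changed no other count of members called (4 and 3 with TCDD at D2 and D1, 8 and 7 for D2 against D1 with TCDD and DMSO). Crossing the numbers at D2 with TCDD left 8. The causes were not tested.

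Genes called in all were 885 at D2, 480 at D1 and 433 for the interaction with no filter, against 500, 197 and 142. With a library left out they ran from 215 to 653 at D2, 78 to 246 at D1 and 49 to 269 for the interaction. Over the same 8 fits, fold changes of TCDD against DMSO that crossed 0 ran at D2 from -0.041 to 0.228 for ROR2, -0.0093 to 0.174 for LRP5, -0.037 to 0.029 for LRP6 and -0.053 to 0.0093 for VANGL2, and at D1 from -0.112 to 0.128 for ROR2, -0.160 to 0.140 for LRP5, -0.114 to 0.0042 for VANGL1, -0.078 to 0.058 for VANGL2 and -0.017 to 0.060 for PPHLN1. ROR1 in D2 against D1 with DMSO ran from -0.131 to 0.015, the interaction from -0.064 to 0.210 for ROR2, -0.058 to 0.243 for LRP5 and -0.081 to 0.055 for VANGL2, and the LRP5 to LRP6 balance at D1 from -0.0021 to 0.261. Where a group held 1 library, that library was assumed to vary like the other groups. LGR5 was too low to test at this depth.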
